A study of Mus musculus with 6 samples.

Results

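The genes described here are 8 interferon-inducible genes of mouse melanoma tumours. They are the apolipoprotein L genes Apol9a, Apol9b and Apol6, the ADP-ribosyltransferase genes Parp9, Parp10, Parp12 and Parp14, and Dtx3l, whose product is the partner of PARP9. They were taken by symbol from a table of 20938 genes, and all 8 were found. They were chosen with the difference between control and YKL-40 tumours already known, so their own differences are given as a description, with no test. Bulk RNA was sequenced from 6 tumours grown from B16F10, a mouse melanoma line, subcutaneously in the hind leg of male C57BL/6 mice aged 6 weeks, and taken on day 19. Of these, 3 were control tumours and 3 came from cells overexpressing YKL-40, the secreted chitinase-like protein whose human gene is CHI3L1; the labels give genotype WT for all 6. The vector of the control cells, the number of cell clones and the species of the overexpressed sequence are not stated, and the labels do not say whether each library is a different mouse. The p-values below therefore measure only the spread between these samples.

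Interferons bind cell surface receptors that signal through JAK kinases to STAT transcription factors. Type I interferon assembles a complex that includes STAT2 and IRF9 and binds the interferon-stimulated response element (ISRE) of target genes. Interferon gamma acts mainly through factors that bind GAS elements, and through IRF1, which also binds ISREs. The PARP family transfers ADP-ribose from NAD+ onto proteins. PARP1 builds long chains at DNA breaks, while PARP10, PARP12 and PARP14 attach single units and are induced by interferon. PARP9 carries macrodomains, folds that bind ADP-ribose, and forms a complex with the ubiquitin ligase DTX3L. Apol9a and Apol9b are mouse apolipoprotein L genes that are known as interferon targets.

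The members lie at 5 places in the genome (mm10, positions from the RefSeq table of GRCm38.p6). Parp14 (chromosome 16, 35831892 to 35871518, minus strand), Dtx3l (35926515 to 35939027, minus strand) and Parp9 (35938470 to 35972621, plus strand) form a cluster in which Dtx3l and Parp9 start head to head and overlap by 558 bases. Their exons in GENCODE release M21 share 458 bases, which is 9.40% of the exonic bases of Parp9 and 8.0% of those of Dtx3l. The library kit keeps no strand, so reads from these bases do not show which gene they came from. Apol6 (chromosome 15, 77045050 to 77057108, plus strand) shares 64 exonic bases with the myoglobin gene Mb on the other strand. Apol9a (chromosome 15, 77403789 to 77411080, minus strand) and Apol9b (77729047 to 77736382, plus strand) face opposite ways, 317966 bases apart. Parp10 is on chromosome 15 (76232995 to 76243440, minus strand) and Parp12 on chromosome 6 (39086412 to 39118349, minus strand).

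Apol9a and Apol9b are near copies in both transcript and promoter. The longest coding transcripts of GENCODE release M21, of 1530 and 1573 bases, differed at 23 of 1475 aligned bases (98.4% identical). Of all stretches of 50 bases in the Apol9a transcript, 50.6% also occur in Apol9b, and of all stretches of 100 bases, 34.1% do. Reads from such stretches cannot be told apart, so the split between these genes depends on how the authors shared them, which the sources used here do not state. The 120 bases before a start that the RefSeq promoter table lists for each gene are shown because both hold the same pair of overlapping ISRE matches, in capitals. The motif searched, on both strands, was GAAA, any 2 bases and GAAA again, and both matches read as TTTC, any 2 bases and TTTC on the strand shown. The Apol9a stretch is at chr15:77411081-77411200 on the minus strand and the Apol9b stretch at chr15:77728952-77729071 on the plus strand, each printed 5′ to 3′ from RefSeq, build GRCm38.p6; the listed Apol9b start lies inside the gene's outermost bounds.
Apol9a: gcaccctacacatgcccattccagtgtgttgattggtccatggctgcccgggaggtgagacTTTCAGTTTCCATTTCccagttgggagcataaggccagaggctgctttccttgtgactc
Apol9b: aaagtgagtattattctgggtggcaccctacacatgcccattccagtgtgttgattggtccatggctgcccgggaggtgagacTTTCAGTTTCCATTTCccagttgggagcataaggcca

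The matches lie 59 to 44 bases before the Apol9a start used here and 37 to 22 bases before the Apol9b start used here. Another start is listed for each gene, and before it the same matches lie at 105 to 90 bases in Apol9a and 86 to 71 bases in Apol9b. The table's full windows, which run on past the listed start, aligned over 278 bases with 0 differences. Over 250 bases before the start, 3.46% of 27025 genes in the RefSeq promoter table held at least 1 ISRE match, and 8.13% held a match to the GAS motif TTCNNNGAA. Of the 8 members, 4 are in that table. Both Apol9 genes held ISRE matches and no GAS match, and the windows of Dtx3l and Parp12 held neither set of letters. The Dtx3l window (chromosome 16, 35939028 to 35939277) lies inside Parp9, and the 558 bases where these genes overlap lie outside it. Its lack of matches therefore does not cover the whole stretch around the 2 starts. These matches describe the sequence and do not show binding.

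Values are FPKM (fragments per kilobase of transcript, scaled to the mapped fragments of a library, a level that can be compared between genes), with mean ± SD and n = 3 in each group. Differences are tumours labelled YKL-40 minus controls in the mean of log2(FPKM + 1), which understates changes of low genes. The FPKM of all genes summed to between 468605 and 490955 in a library. Total read numbers are unknown, so no counting interval could be given. The mouse gene of YKL-40, Chil1 in the file, had 0.0644, 0 and 0.0242 FPKM in the controls and was listed at 0 in all 3 tumours labelled YKL-40. For a mouse sequence this would go against the labels, and a human sequence need not be counted there; the labels alone give the direction of every difference below. Markers of melanocytes were high in all libraries, with a summed level of 8 genes from 8662 to 10132 FPKM in the controls and from 8664 to 10804 in the tumours labelled YKL-40.

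For all 8 members, the lowest value of the tumours labelled YKL-40 exceeded the highest control. Of the 11241 genes that averaged 1 FPKM or more across the 6 libraries and were tested, 10.3% were higher without overlap in this way; since the members were chosen on this contrast, their count is no finding. All 8 reached that mean, but Apol6 did so only through the tumours labelled YKL-40. The differences ran from 0.84 for Dtx3l to 3.68 for Apol9a with a median of 1.15, against a median of -0.04 over all tested genes. In whole tumours, more cells of a type and more RNA per cell cannot be told apart. Summed markers of T and NK cells, macrophages and dendritic cells were also higher without overlap, and their values are given with the other marker lists after the genes.

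**Figure D1:**
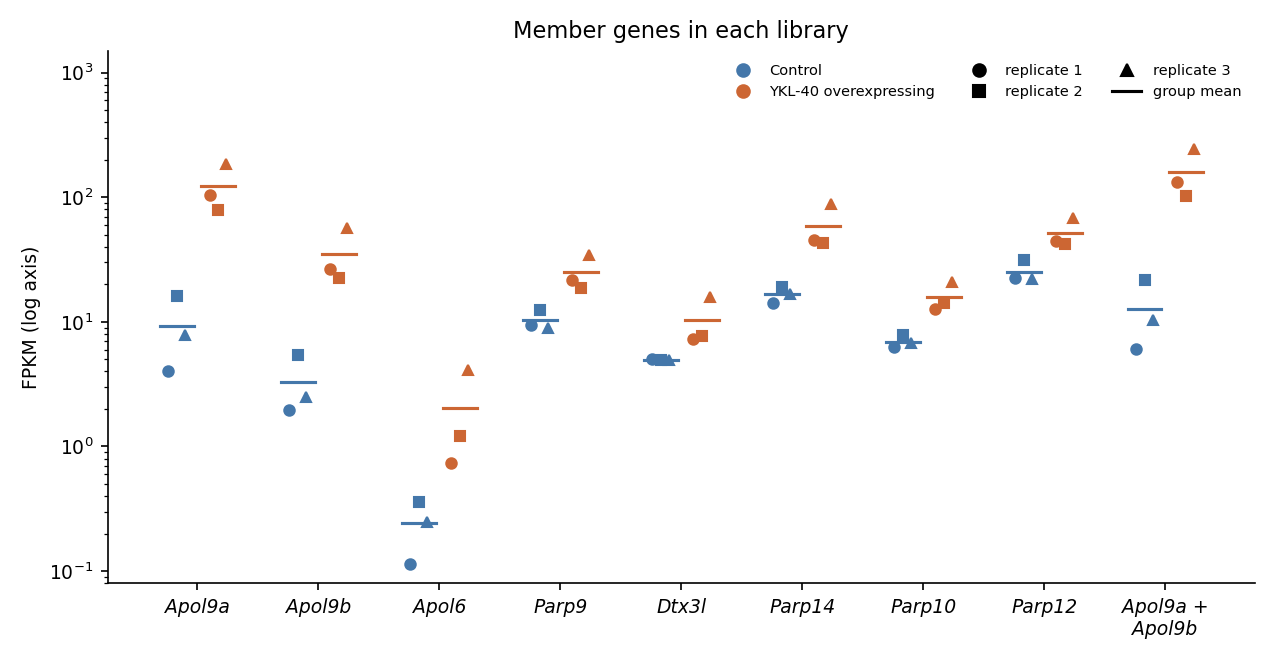
FPKM of each member and of the Apol9a and Apol9b sum on a log axis, for 3 control (blue) and 3 YKL-40 overexpressing (orange) libraries; symbols mark the replicate number and bars the group mean. For every member the orange points lie above the blue ones, and replicate 3 is the highest orange point.

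By the ratio of group means, the apolipoprotein L genes differed most (Apol9a 13.3, Apol9b 10.6 and Apol6 8.42). Apol9a had 4.06, 16.1 and 7.78 FPKM in the 3 controls against 105, 79.6 and 187 FPKM in the 3 tumours labelled YKL-40. The lowest YKL-40-labelled value thus stood well above the highest control, although the controls themselves spread widely, with control 2 at 2.72 times the mean of the other controls. Apol9b had 1.98, 5.43 and 2.49 FPKM in the controls against 26.6, 22.5 and 56.2 FPKM in the tumours labelled YKL-40, with the same libraries at the top and the bottom of each group. Added together, because their reads are hard to separate, they stood at 12.6 ± 7.99 and 159 ± 74.1 FPKM, a ratio of means of 12.6 and a difference of 3.62 in log2(FPKM + 1). Apol9b stood at 0.488, 0.338 and 0.320 of the Apol9a level in the controls and at 0.254, 0.283 and 0.301 in the tumours labelled YKL-40. By these values Apol9a was the more abundant copy in every library, but the split depends on how shared reads were assigned, which is not stated.

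Apol6, another intracellular member of the family, was low throughout. It had 0.114, 0.362 and 0.250 FPKM in the controls against 0.738, 1.22 and 4.15 FPKM in the tumours labelled YKL-40. Library 3 alone carried most of the YKL-40-labelled mean of 2.04 ± 1.84 FPKM, at 4.23 times the mean of the other tumours of its group. The difference was 1.13, and 0.67 without YKL-40 library 3. Myoglobin, whose exons Apol6 overlaps, had 0.770 ± 0.415 FPKM in the controls against 0.719 ± 0.482 in the tumours labelled YKL-40. The other apolipoprotein L genes did not reach the filter. Of 9 found in the table, 2 were at 0 in all libraries and none exceeded 1.31 FPKM, the value of Apol11b in control 3. Apol7e had 0.0613, 0 and 0 FPKM in the controls against 0.502, 0.107 and 0.786 in the tumours labelled YKL-40. Apol10b had 0.00473, 0.0276 and 0.0372 against 0.178, 0.168 and 0.723 FPKM. Both are named after the data were seen, and at such levels a few reads can make the difference. Apol9a and Apol9b made up between 83.3% and 97.2% of all apolipoprotein L FPKM in the controls, against between 97.5% and 98.3% in the tumours labelled YKL-40.

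Parp9 and Dtx3l encode the subunits of the complex, and Dtx3l was the lower in every library. Parp9 had 9.52, 12.4 and 8.95 FPKM in the controls against 21.9, 18.7 and 34.3 FPKM in the tumours labelled YKL-40, a ratio of means of 2.42. Dtx3l had 5.02, 4.92 and 4.96 FPKM in the controls, the tightest control values of any member, and 7.33, 7.77 and 15.8 FPKM in the tumours labelled YKL-40. Its ratio of means was 2.07, and its difference of 0.84 was 0.52 without YKL-40 library 3. The level of Dtx3l over that of Parp9 was 0.492 ± 0.0850 in the controls against 0.404 ± 0.0634 in the tumours labelled YKL-40, and the groups overlapped. How reads from the exonic bases they share were counted is not known.

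Parp14 encodes the macrodomain-bearing mono-ADP-ribosyltransferase of the same cluster. It had 14.2, 18.9 and 16.8 FPKM in the controls against 45.2, 43.1 and 88 FPKM in the tumours labelled YKL-40. At a ratio of means of 3.53 it differed most of the PARP members, with a difference of 1.69. Its level over that of Parp9 was 1.49, 1.52 and 1.88 in the controls against 2.07, 2.31 and 2.56 in the tumours labelled YKL-40, so that these groups did not overlap. As a ratio of members it comes from the contrast on which they were chosen and was not tested.

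Parp10 and Parp12, mono-ADP-ribosyltransferases outside the cluster, differed by similar amounts. Parp10 had 6.25, 7.90 and 6.71 FPKM in the controls against 12.8, 14.3 and 20.8 FPKM in the tumours labelled YKL-40 (ratio of means 2.29). Parp12, which carries zinc fingers that bind RNA, had 22.6, 31.2 and 22.1 FPKM in the controls against 44.2, 41.9 and 67.7 FPKM in the tumours labelled YKL-40 (ratio of means 2.03). In the controls Parp12 was the most abundant member at 25.3 ± 5.14 FPKM. Parp14 followed at 16.6 ± 2.35 FPKM, below every Parp12 value. Next came Parp9 (10.3 ± 1.87), Apol9a (9.31 ± 6.15), Parp10 (6.95 ± 0.853), Dtx3l (4.96 ± 0.0519), Apol9b (3.30 ± 1.86) and Apol6 (0.242 ± 0.124). The Apol9a controls, from 4.06 to 16.1 FPKM, overlapped those of Parp14, Parp9, Parp10, Dtx3l and Apol9b, and Dtx3l and Apol9b overlapped each other. In the tumours labelled YKL-40, Apol9a led at 124 ± 55.8 FPKM, a level that depends on how reads shared with Apol9b were split. Parp14 (58.8 ± 25.3) overlapped both Apol9a above it and Parp12 (51.2 ± 14.3) below it, and Apol9b stood above Parp9 in mean level at 35.1 ± 18.4 against 25.0 ± 8.27 FPKM, with overlapping ranges.

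The 12 other PARP genes were measured in the same fit and are given beside the members. With limma and Benjamini-Hochberg adjustment over all 11241 genes, 0.436% of tested genes were called (0.365% higher, 0.0712% lower), and of the 12 genes 0 were called. At an unadjusted p under 0.05 there were 3, all higher, while 18.0% of all tested genes had such a p. Of the 12, 3 were higher without overlap, against 10.3% of all tested genes, and 0 were lower without overlap. Their median difference was 0.02. Parp11, a mono-ADP-ribosyltransferase, had 6.05, 6.54 and 5.14 FPKM in the controls against 8.02, 8.86 and 15.8 in the tumours labelled YKL-40. The groups did not overlap, and the difference of 0.73 (95% interval 0.19 to 1.28) had an adjusted p of 0.180 in limma. Zc3hav1, the catalytically inactive zinc finger antiviral protein also called PARP13 and the most abundant of the 12, had 67.1 ± 4.37 and 82.7 ± 11.1 FPKM, a difference of 0.29 (0.01 to 0.57; adjusted p = 0.268 in limma). Parp1, the main DNA damage enzyme (named after the data were seen), had 47.2 ± 2.63 and 42.5 ± 7.57 FPKM, a difference of -0.16 (-0.48 to 0.16). Summed over all 16 PARP genes, the family had 293 ± 8.87 FPKM in the controls against 404 ± 70.1 in the tumours labelled YKL-40. Parp9, Parp10, Parp12 and Parp14 were 17.8%, 23.4% and 19.3% of that sum in the controls against 35.1%, 31.4% and 43.5% in the tumours labelled YKL-40. These members were chosen on this contrast, so the family sum and this share follow in part from that choice and were not tested. The other 12 summed to 234 ± 7.19 and 253 ± 22.5 FPKM, with overlapping groups.

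**Figure D2:**
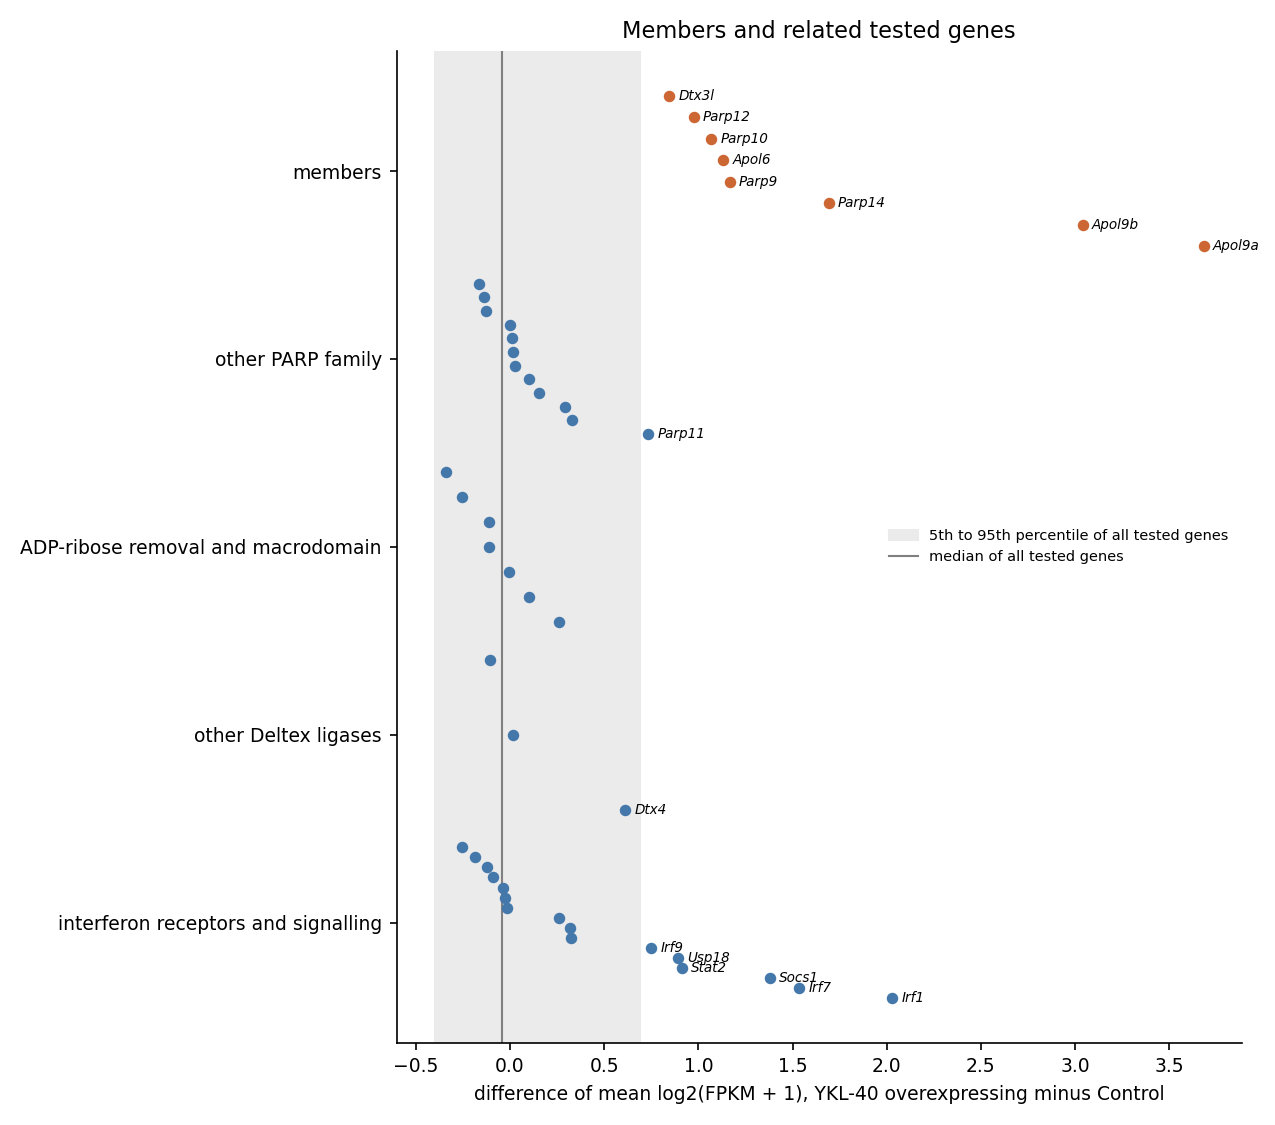
Difference of mean log2(FPKM + 1), YKL-40 overexpressing minus Control, for the 8 members (orange) and for related tested genes (blue), 1 point per gene, with 16 of the 17 signalling genes drawn; grey band and line give the 5th to 95th percentile and the median of all 11241 tested genes. The members, chosen on this contrast, lie from 0.84 to 3.68, and among the other PARP genes Parp11 at 0.73 lies past the band.

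Enzymes that remove ADP-ribose and the other Deltex ligases were not called either. Of 7 tested genes of ADP-ribose removal and macrodomains, 0 were called in limma, with 1 higher and 2 lower at an unadjusted p under 0.05 and a median difference of -0.11. Parg, which degrades poly-ADP-ribose chains, had 37.9, 37.1 and 34.1 FPKM in the controls against 29.0, 32.9 and 29.0 in the tumours labelled YKL-40. All YKL-40-labelled values lay below the controls, but the difference of -0.26 (95% interval -0.48 to -0.03) had an adjusted p of 0.229 in limma. Adprh, which removes ADP-ribose from arginine, had 11.1 ± 0.523 and 13.5 ± 0.560 FPKM (difference 0.26, 0.05 to 0.47; adjusted p = 0.200 in limma). Of 3 tested Deltex genes other than Dtx3l, 0 were called and 0 had an unadjusted p under 0.05 in limma. Dtx3, the most abundant, had 13.1 ± 1.97 and 12.0 ± 1.17 FPKM, and Dtx4 had 1.57 ± 1.14 and 2.81 ± 1.34 FPKM (difference 0.61, -0.24 to 1.46).

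Among the receptors, kinases and factors that carry interferon signals to such genes, 1 of 17 was called, higher, and the others were not. This was Irf1, the factor that binds ISREs downstream of interferon gamma. It had 9.01, 11.7 and 10.2 FPKM in the controls against 40.5, 30.3 and 73.5 in the tumours labelled YKL-40, a difference of 2.03 (SE 0.29, adjusted p = 0.0472 in limma). The order of its YKL-40-labelled libraries was that of Apol9a. The call was lost in 6 of 13 alternatives. Among these, the adjusted p in limma was 0.171 with control 1 left out, 0.139 with control 2 left out and 0.144 with the first tumour labelled YKL-40 left out. Over the 13 alternatives it ran from 0.0159 to 0.171, and the difference from 1.68 to 2.30. At an unadjusted p under 0.05, 8 of the 17 were higher and 0 lower, against 18.0% of all tested genes in either direction, and the median difference was 0.32.

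Stat2 and Irf9, of the ISRE-binding complex, had groups that did not overlap but did not pass the adjustment. Stat2 had 10.5 ± 1.37 and 21.2 ± 7.07 FPKM (difference 0.91, adjusted p = 0.10 in limma), and Irf9 had 11.5 ± 1.88 and 20.0 ± 2.55 FPKM (0.75, adjusted p = 0.0795 in limma). Without YKL-40 library 2, Irf9 and Socs1, an inhibitor of JAK kinases, were called beside Irf1. Stat2, Irf9 and Socs1 are named after the data were seen. Ifnar1, a chain of the type I receptor and the most abundant of the 17, had 152 ± 6.57 and 140 ± 18.1 FPKM (difference -0.12, 95% interval -0.39 to 0.14).

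Transcripts of the interferons themselves were at or near 0, and 0 of 21 interferon genes reached the filter. Ifng, the gene of interferon gamma, which T and NK cells make, had 0, 0.0215 and 0 FPKM in the controls against 0.250, 0.235 and 0.695 FPKM in the tumours labelled YKL-40. It was the most abundant of the 21, its groups did not overlap and its highest value was in YKL-40 library 3, where every member was also highest. At such levels a few reads can make the difference, and any part of Ifng in the members' levels was not tested. Of the 21 genes, 16 were listed at 0 in all 6 libraries. Ifnb1 (named after the data were seen) did not exceed 0.0872 FPKM. The depth is unknown, so the level that these zeros allow cannot be given.

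Within the groups, most members shared their highest library but not the full order. YKL-40 library 2 was the lowest of its group for 5 of the 8. How many of all tested genes had the same libraries highest was not counted. Control 2 was the highest control for 7 of the 8, Dtx3l being the exception. YKL-40 library 3 was the highest of its group for all 8, at between 1.53 times (Parp10) and 4.23 times (Apol6) the mean of the other tumours of its group. Likeness was measured as Pearson's r between deviations from the group means on the log2(FPKM + 1) scale over 6 libraries, a measure that leaves the difference between the groups out. Against the mean of the other 7 members, r ran from 0.80 for Apol9a to 0.98 for Parp14. Without YKL-40 library 3 it was between 0.62 and 0.94 for 7 members and -0.29 for Dtx3l, whose likeness rests on that library. The members share their libraries and their depth, so these values describe the 6 libraries only.

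By the same measure, the genes most like the mean of the 8 members among all tested genes included Usp25, Tnfsf10, Irgm2 and Cacybp, with r of at least 0.995. Tnfsf10, the death ligand TRAIL, had 0.478, 1.28 and 0.695 FPKM in the controls against 2.49, 2.44 and 5.70 in the tumours labelled YKL-40. Irgm2, an interferon-inducible GTPase, had 1.85, 3.71 and 1.99 against 11.5, 10.2 and 30.2 FPKM. Usp25, a deubiquitinase, had 28.4, 33.4 and 29.4 against 29.3, 29.0 and 39.4 FPKM, so its groups overlapped, although control 2 and YKL-40 library 3 were its highest too. Cacybp differed by -0.21. The genes most like the Apol9a and Apol9b sum were Dhrs11, Tbc1d30, Rpf2, Ubl3 and Eif3g, with r of at least 0.986 and differences between -0.57 (Rpf2) and 0.33 (Tbc1d30). These genes top a ranking of all tested genes over 6 libraries, and their high r follows in part from that choice.

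Genes next to the members were measured to see whether the differences extended along the chromosome. The 3 nearest named genes on each side of the 5 loci came to 28 genes, of which 17 were tested. Genes lying inside a locus, such as the apolipoprotein L genes between Apol9a and Apol9b, were not counted as its neighbours. None of the 17 was called (0 in limma), and 1 reached an unadjusted p under 0.05, as did 18.0% of all tested genes. Their median difference was -0.01 and they ran from -0.18 for Kpna1 to 0.40 for Grina. Among the untested neighbours, all below the filter, Tbxas1, Rab19 and Apol7b were higher without overlap and Smpd5 was lower. Rab19, Apol7b and Smpd5 are named after the data were seen. Next to the Parp14, Dtx3l and Parp9 cluster, Hspbap1 had 2.32 ± 0.726 and 2.24 ± 0.17 FPKM, and Kpna1, at 10.7 kb on the other side, had 20.7 ± 1.35 and 18.3 ± 2.35 FPKM. Grina, 3.28 kb from Parp10, had 25.2, 24.4 and 26.1 FPKM in the controls against 33.5, 34.4 and 33.2 in the tumours labelled YKL-40. Its groups did not overlap, and the difference of 0.40 (95% interval 0.21 to 0.59) had an adjusted p of 0.0845 in limma. On the other side of Parp10, Plec had 96.0 ± 19.2 and 103 ± 17.2 FPKM. Parp12 had Tbxas1 on one side, at 0.297 ± 0.176 and 0.837 ± 0.285 FPKM and below the filter, and Kdm7a on the other (difference -0.12). On the sides of Apol6, Rbfox2 differed by -0.03 and Zfp647 by -0.14. The genes beside the Apol9 locus, Apol7a and Apol8, did not exceed 0.283 FPKM. Between Apol9a and Apol9b, the genes Apol7b, Apol10b and Apol7e were higher without overlap, and the groups of the other genes there overlapped. None of the genes between them reached the filter.

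**Figure D3:**
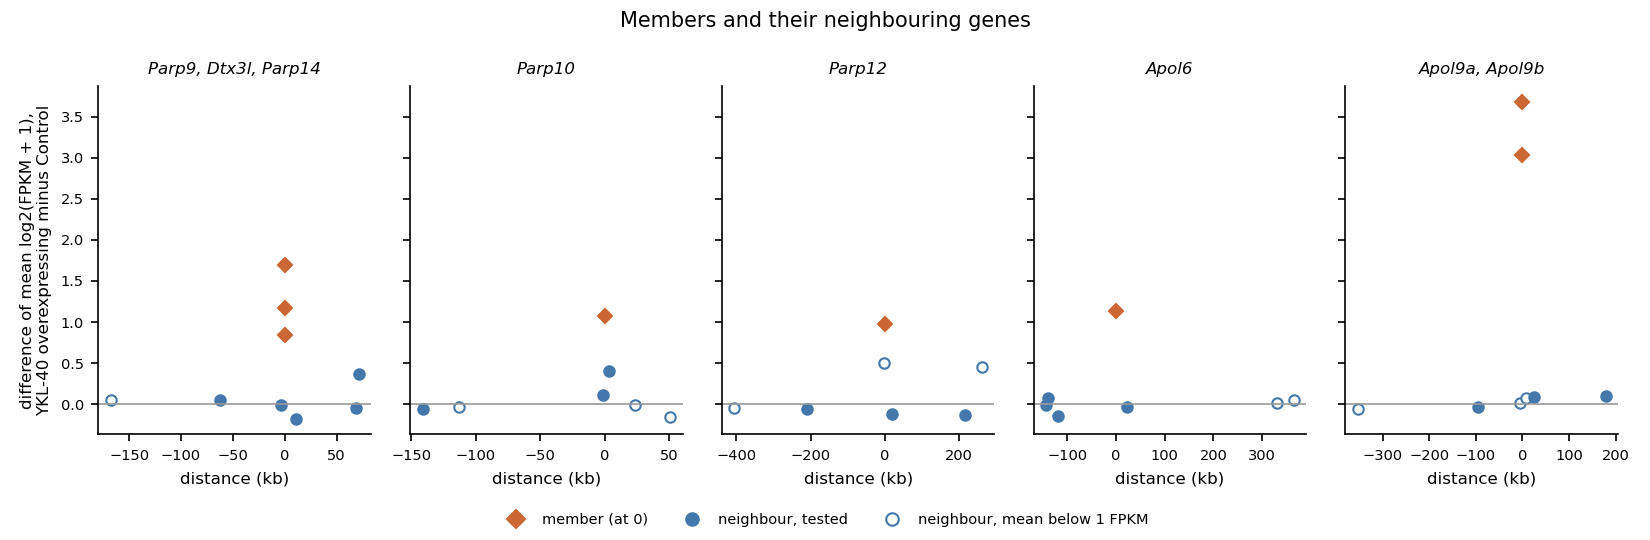
Difference of mean log2(FPKM + 1) for the members (orange diamonds, placed at 0) and for their neighbours (blue) against the distance in kb from the edge of each locus, negative towards lower coordinates; filled circles were tested and open circles had a mean below 1 FPKM. The tested neighbours lie between -0.18 and 0.40, all below the members, which were chosen on this contrast.

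Markers of other cell types differed between the groups as well. Of 13 T and NK cell markers in the table, 13 were higher without overlap. Of all tested genes, which averaged 1 FPKM or more, 10.3% were, a share that stands beside each count of higher markers below as well. The markers of every list were counted without that filter. Among the 13, Gzmb, a cytotoxic granule protease, was the most abundant. The summed level of the 13 was between 0.981 and 2.57 FPKM in the controls, against between 11.2 and 43.0 in the tumours labelled YKL-40. The highest sum was in YKL-40 library 3 and the lowest in library 2, which was also the order of Apol9a, Apol9b, Parp9, Parp14 and Parp12. Of 12 macrophage markers 8 were higher without overlap, with sums from 92.9 to 302 and from 339 to 495 FPKM, and of 8 dendritic cell markers 7 were, with sums from 4.78 to 10.9 and from 17.0 to 37.1 FPKM.

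Of 6 fibroblast markers 3 were higher without overlap, with sums from 25.2 to 230 and from 208 to 394 FPKM, and of 6 endothelial markers 1 was. Skeletal muscle markers went the other way. Of 14, 10 were lower without overlap, as were 14.2% of all tested genes, with sums from 44.3 to 184 FPKM in the controls and from 4.74 to 28.8 in the tumours labelled YKL-40. No marker of any of these lists was at 0 in all 6 libraries. At 0 in some library were 7 of the T and NK cell markers, 1 dendritic cell marker and 4 skeletal muscle markers. Among the controls the orders differed: the summed macrophage and T and NK cell markers were highest in control 3, while 7 of the 8 members were highest in control 2. The part of these cells in the members' differences was not tested.

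**Figure D4:**
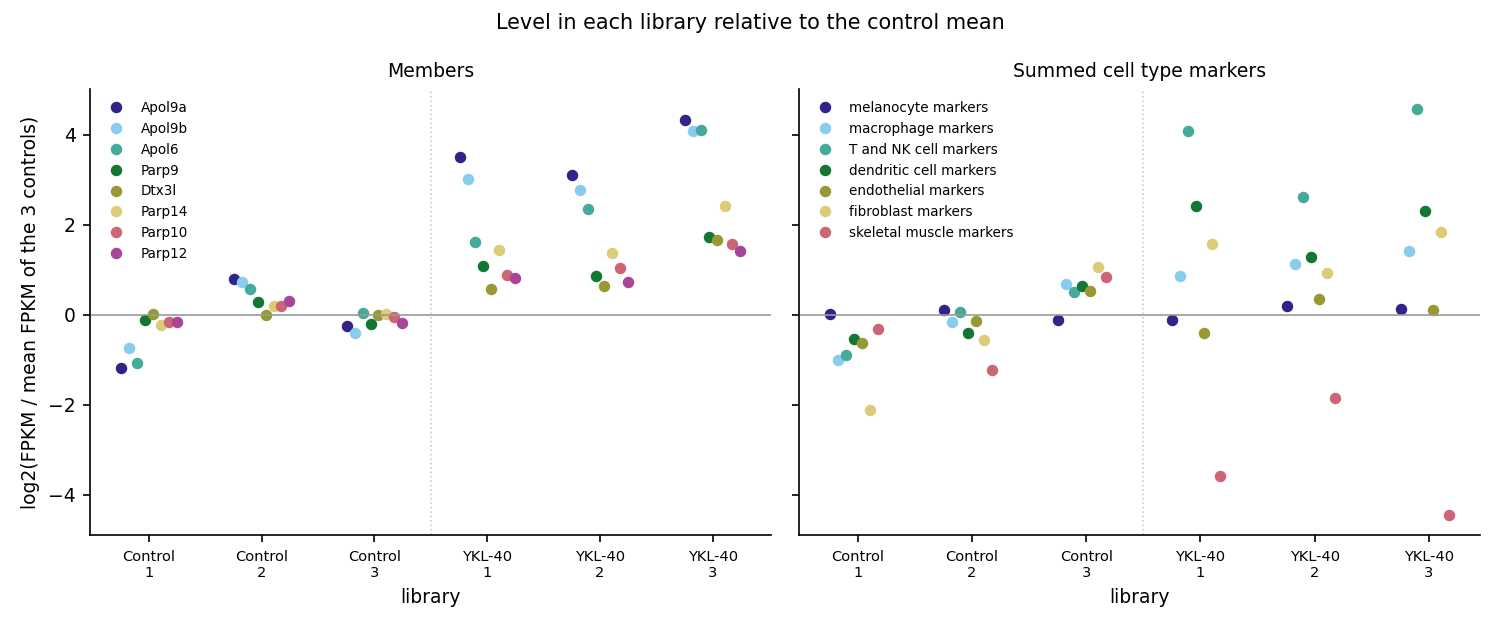
log2 of FPKM over the mean of the 3 controls in each of the 6 libraries, for the 8 members (left) and for the summed markers of 7 cell types (right). The members and the summed markers of T and NK cells, macrophages, dendritic cells and fibroblasts are above 0 in all 3 tumours labelled YKL-40. The skeletal muscle markers are below 0 there, and the melanocyte markers stay close to it.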

How the data were processed

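RNA of 6 tumours was sequenced from libraries made with 2 µg of RNA and the TruSeq V2 kit, per the labels' protocols. The authors deposited a table with 1 FPKM value per gene and library. Per the submitters' processing notes, mm10, limma, DESeq2, StringTie, HISAT2 and bcl2fastq 2.0 were used, without roles; annotation, filters and the way transcripts were combined are not given in the sources used here. Groups came from the titles. Values were used as log2(FPKM + 1), and the 11241 of 20938 genes averaging 1 FPKM or more were tested with limma 3.58.1 in R 4.3.3, two-sided, with a variance trend and a Benjamini-Hochberg threshold of 0.05 over all tested genes. The procedure was tested on simulated data with noise drawn independently for each gene and library. Shifts shared by many genes of a library were not simulated, so that run does not cover them. Depth in reads is unknown, so precision comes from replicate spread alone.

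The members and all gene lists were chosen with earlier results of these data known. Named were the members, the called, the most abundant and the lowest-p gene of each list, the nearest neighbours of each locus and the genes most like the members; others are marked as named after the data were seen. Alternatives were a pseudocount of 0.1, no filter, a filter at 5 FPKM, median of ratios and equal-sum scaling, no variance trend, the replicate number as a block, and leaving out each library. Positions and promoters are from RefSeq (GRCm38.p6, the assembly of mm10), and exons, strands and transcripts from GENCODE M21. The kit keeps no strand. Sequences were searched with Python 3.11.15 and aligned with Biopython 1.88. Some genes that the naming rule covers are not reported here.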

Additional observations from a re-analysis of the deposited data

How the results depend on the processing

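The members were chosen on this contrast and their groups do not overlap, so leaving out a library or changing the pseudocount cannot turn their direction, and only the sizes are given. Of 72 member differences under the scalings, the pseudocount of 0.1 and the fits without a library, 71 moved by less than the replicate SD; Apol6 went from 1.13 to 2.36 with a pseudocount of 0.1. The members' median difference of 1.15 ran from 0.90 to 1.34 without a library, and that of the summed Apol9 genes, 3.62, from 3.23 to 4.07. The filters, the variance trend and the block do not enter these values. The count of 49 called genes was 1 without a filter and between 0 and 238 without a library (leaving out control 1 gave 2, control 2 gave 0, control 3 gave 209, and leaving out YKL-40 library 1 gave 4 and library 2 gave 238). The 0 of limma came with 1345 genes at an unadjusted p under 0.05. With the replicate number as a block, 120 genes were called. The titles do not say whether the numbers pair the libraries. Deviations of same-numbered libraries from their group means correlated at -0.08, -0.18 and 0.0017, and those of differently numbered libraries at between -0.137 and 0.204. With 3 libraries in each group, these values cannot decide it. The count of called interferon signalling genes, 1, was 0 without a filter, 0 with median of ratios scaling, 0 without a variance trend, and between 0 and 3 without a library; with the block it was 1. The counts of 0 for the other PARP genes, the ADP-ribose removal genes, the Deltex genes and the neighbours stayed 0 under each alternative. The other apolipoprotein L and the interferon genes could be tested only without a filter, with 0 called. The cause of the changed counts was not tested. The unknown depth limits what can be said of genes near 0, such as Ifng and Apol7e.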
